A study of Mus musculus with 40 samples.

Results

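The genes described here belong to the peroxide and thioredoxin defence of gut bacteria, counted in RNA from the cecal contents of mice that ate broccoli powder. They were chosen by symbol alone: all rows of 5 bacterial count tables named rbr1, rbr, tpx, trxA, trxB, ahpC, bcp, sodB, katA or msrB once a trailing copy number was removed. This gave 30 of the 16742 features in those tables, and 12 of the 30 passed the low-count filter and could be tested. A sixth table, Alistipes, was outside the rule.

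Thioredoxin (trxA) is a small protein whose paired cysteines reduce disulphides in other proteins, and thioredoxin reductase (trxB) recharges it with electrons from NADPH. Thiol peroxidase (tpx) and its relatives ahpC and bcp break down peroxides through reactive cysteines that thioredoxin or a partner reductase restores. Rubrerythrin (rbr, rbr1) is an iron protein that reduces hydrogen peroxide in many anaerobes, whereas superoxide dismutase (sodB) and catalase (katA) act on superoxide and hydrogen peroxide directly. Methionine sulfoxide reductase (msrB) repairs oxidised methionine and is itself recharged by thioredoxin. Broccoli supplies glucosinolates, whose breakdown products, the isothiocyanates, react with thiols, and the comparison across diets asks how these genes moved in each bacterium.

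C57BL/6 mice, 3 weeks old at the start, ate the Total Western Diet for 6 weeks. They then stayed on that diet for 3 weeks with broccoli powder at 0.5%, 1% or 2.5%, or with none (0%), so the 0% mice also carried the Western-type diet throughout. Each diet had 10 libraries of total RNA depleted of bacterial ribosomal RNA. The labels do not tie libraries to named animals or cages, so p-values measure the spread between these samples.

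The 6 tables held 236483 to 5107197 counts per library, with a median of 825723.5. The counts were unevenly shared among the bacteria and the sharing moved with diet. F. rodentium held a median of 77.5% of a library's counts at 0%, 78.3% at 0.5%, 54.2% at 1% and 6.32% at 2.5%. A library entered the test of a bacterium only with at least 10000 counts in its table, which removed 2 libraries at 2.5% (replicates 6 and 9, with 161 and 352 counts) from F. rodentium. In D. muris the libraries kept numbered 9, 9, 10 and 9 from 0% to 2.5%, and in X. muris 7, 7, 10 and 9, whereas Acetatifactor and L.bacterium335 kept all 40. Bacteria carry the names of the tables, abbreviated genus names included. Genes with a number after the symbol, such as trxA_1 to trxA_3, are copies whose separate counts are uncertain, because the handling of reads shared between copies was not stated in the labels.

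Nearly all the counted defence RNA came from F. rodentium at 0%, and its part of the library was smaller at 2.5%. Summed over its 7 members, F. rodentium supplied 75613 counts at 0%, 91185 at 0.5% (44674 of them in replicate 10), 41018 at 1% and 15912 at 2.5%. This was 99.6%, 99.0%, 96.0% and 77.03% of all counts of the 30 members. Scaled to a common library total as CPM of the 6 tables together, the F. rodentium members ran from 10.8 to 3675 at 2.5% (median 790.1), against 7079 to 10781 at 0% (median 9546). The ranges at 2.5% and 0% did not overlap. At 0.5% they ran from 4193 to 8747 (median 5255) and at 1% from 685 to 11064 (median 5724). The values did not follow the share of F. rodentium in the library at every dose. That share was 78.3% at 0.5% and 77.5% at 0%, while the median of the members was lower at 0.5%. In such bulk RNA, fewer cells of a bacterium and less RNA per cell cannot be told apart.

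The other 4 bacteria supplied a small part, which was larger at the highest dose than at 0%. The 5 members of L.bacterium335 summed to 0 counts at 0%, 201 at 0.5%, 569 at 1% and 2446 at 2.5%, the last being 11.8% of all member counts. D. muris gave 299, 544, 728 and 919 counts in the same order of doses. Acetatifactor gave 20, 118, 273 and 683, and X. muris gave 17, 62, 118 and 698. At 2.5% the median library held 234 CPM of members from L.bacterium335, 81.6 from Acetatifactor, 72.1 from D. muris and 59.6 from X. muris. At 0% the same medians were 0 for L.bacterium335, 0 for Acetatifactor, 37.2 for D. muris and 0.573 for X. muris. Those of L.bacterium335 and Acetatifactor rose at each dose. The D. muris median was 40.1 at 0.5% and highest at 1%, at 100.4, and that of X. muris was 0 at 0.5% and 14.7 at 1%. The totals of these 4 tables also stood higher at 2.5% than at 0%, with medians of 525403.5 against 83651 counts in L.bacterium335 and 129471 against 35241 in Acetatifactor.

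**Figure D1:**
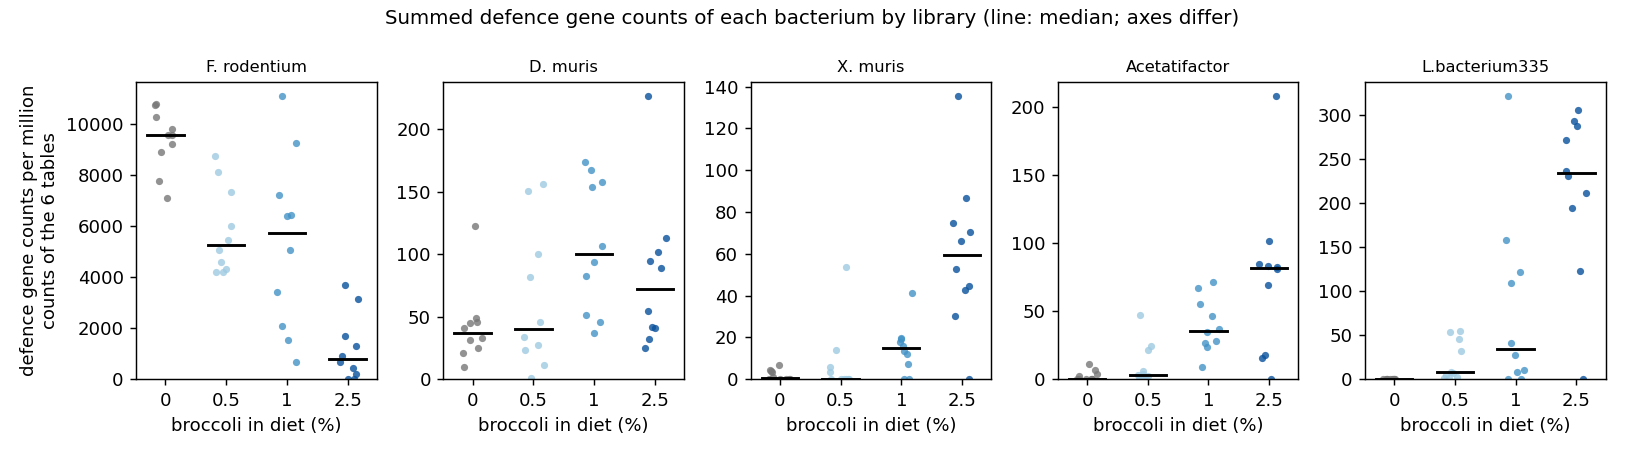
Counts of the defence genes of each bacterium, in CPM of the 6 tables together (vertical axes, which differ between panels), in each library at 0, 0.5, 1 and 2.5% broccoli (horizontal axes), with a line at the median. The F. rodentium libraries at 2.5% reach 3675 at most and all lie below the lowest 0% library at 7079, while L.bacterium335 is at 0 in all 10 libraries at 0%.

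The tests that follow scale a gene to the counts of its own bacterium, with TMM factors within the table. This set the median log2 fold change of all genes near 0 at 2.5% in F. rodentium (0.01) and D. muris (0.08), but not in X. muris (0.51), Acetatifactor (1.81) or L.bacterium335 (7.94), where most tested genes had higher values than at 0% and a call is no difference from the other genes. Counts of each table were fitted alone with the two-sided quasi-likelihood test of edgeR, p-values were adjusted by the Benjamini-Hochberg method over all tested genes of that bacterium and comparison, and a gene was called at an adjusted p under 0.05. Levels from here on are CPM of the bacterium's own tested counts after TMM scaling, so levels of one gene may be compared across diets but levels of different genes may not, since gene lengths were not used. A log2 fold change is given ± its standard error. All 3 broccoli doses were set against the same 0% libraries, so their results are not independent of each other.

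Over the 5 bacteria, 6 of the 12 tested members were called at 2.5% against 0%, 2 higher and 4 lower. The share of all 5624 tested genes called there was 39.7%, with 30.2% called higher and 9.5% called lower. At 1% against 0%, 2 members were called, both higher, where 31.1% of all genes were called and 27.4% were higher. At 0.5% against 0%, 6 were called, 2 higher and 4 lower, against 26.7% of all genes, 23.9% higher and 2.76% lower. The lower calls lay in F. rodentium and D. muris, and the higher ones were trxA of Acetatifactor and rbr of L.bacterium335. Both of these were at 0 in most 0% libraries and passed the low-count filter through the broccoli groups where they were high, so their higher calls were fixed in direction by the filter and support nothing. The dose slope, a trend in the percent of broccoli, was called for 2 members, 1 higher (L.bacterium335 rbr) and 1 lower (D. muris trxA_1), beside 24.3% of all genes.

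In F. rodentium all calls of members were lower relative to the rest of the genome, at 0.5% and 2.5%, with 0 of the 7 called at 1%. At 2.5% against 0%, 3 of the 7 members were called, all lower: rbr1, tpx and trxB. Of all 1689 tested F. rodentium genes, 9.41% were called at this dose and 4.03% were called lower, which is 91 higher and 68 lower, or 111 higher and 45 lower with RLE scaling factors in place of TMM. At 0.5% against 0%, 4 of the 7 were called, again all lower: trxB, tpx, trxA_1 and trxA_3, with 8.47% of all genes called and 4.91% called lower (60 higher and 83 lower, or 78 and 72 with RLE factors). All 7 members had values below 0 at both doses, with a median log2 fold change of -0.70 at 2.5% and -0.89 at 0.5%, where the medians of all genes were 0.01 and 0.02 and 49.0% and 47.8% of all genes lay below 0. All 7 members passed the low-count filter.

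Thiol peroxidase, tpx, lay below the range of the 0% libraries in most libraries at each broccoli dose. Its level ran from 506 to 1067 CPM at 0% (median 588), from 141 to 536 at 0.5% (median 313), from 248 to 724 at 1% (median 405) and from 141 to 557 at 2.5% (median 309). Of the libraries with broccoli, 9 of 10 at 0.5%, 8 of 10 at 1% and 7 of 8 at 2.5% lay below the lowest 0% library. The log2 fold change was -0.83 ± 0.24 at 2.5% against 0%, a 1.77-fold lower level (edgeR adjusted p = 0.0224). At 0.5% against 0% it was -0.98 ± 0.21, or 1.97-fold lower (edgeR adjusted p = 0.00251). At 1% the value was -0.63 ± 0.22 and missed the threshold (edgeR adjusted p = 0.337). The count behind these levels ran from 6 to 361 per library at 2.5%, against 75 to 1086 at 0%. The call at 2.5% held in every fit that left out 1 library, and it was lost with a minimum of 50000 counts per library (-0.64, edgeR adjusted p = 0.116).

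Rubrerythrin, rbr1, showed a smaller shift inside overlapping ranges. Its level was 2626 to 8636 CPM at 0% (median 3924), 2005 to 3997 at 0.5% (median 3209), 2303 to 5309 at 1% (median 3514) and 1597 to 3643 at 2.5% (median 2868). All 8 libraries at 2.5% lay below the 0% mean of 4559 CPM, and 4 of them below the lowest 0% library. The log2 fold change at 2.5% against 0% was -0.70 ± 0.20, or 1.63-fold lower (edgeR adjusted p = 0.0207). It was -0.34 ± 0.19 at 1% (edgeR adjusted p = 0.618) and -0.51 ± 0.18 at 0.5% (edgeR adjusted p = 0.0738), neither called. The slope of rbr1 was -0.24 ± 0.08 per percent of broccoli and also missed the threshold (edgeR adjusted p = 0.0594).

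Thioredoxin reductase, trxB, had the lowest p of the F. rodentium members at the lowest dose. Its level was 1001 to 1811 CPM at 0% (median 1259), 359.9 to 819 at 0.5% (median 599.5), 593 to 1578 at 1% (median 891) and 493.04 to 1261 at 2.5% (median 919). No 0.5% library reached the lowest 0% library, and at 1% and 2.5% the groups overlapped. At 0.5% against 0% the log2 fold change was -1.10 ± 0.19, or 2.15-fold lower (edgeR adjusted p = 9.97e-05), rank 6 by p among the 1689 genes. At 2.5% against 0% it was -0.60 ± 0.20, or 1.52-fold lower, at the edge of the threshold (edgeR adjusted p = 0.0493). That call was lost in 17 of 40 fits that left out 1 library and with RLE factors (-0.51, edgeR adjusted p = 0.0777), whereas the call at 0.5% stayed under every setting tried. At 1% the value was -0.48 ± 0.19 (edgeR adjusted p = 0.421).

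**Figure D2:**
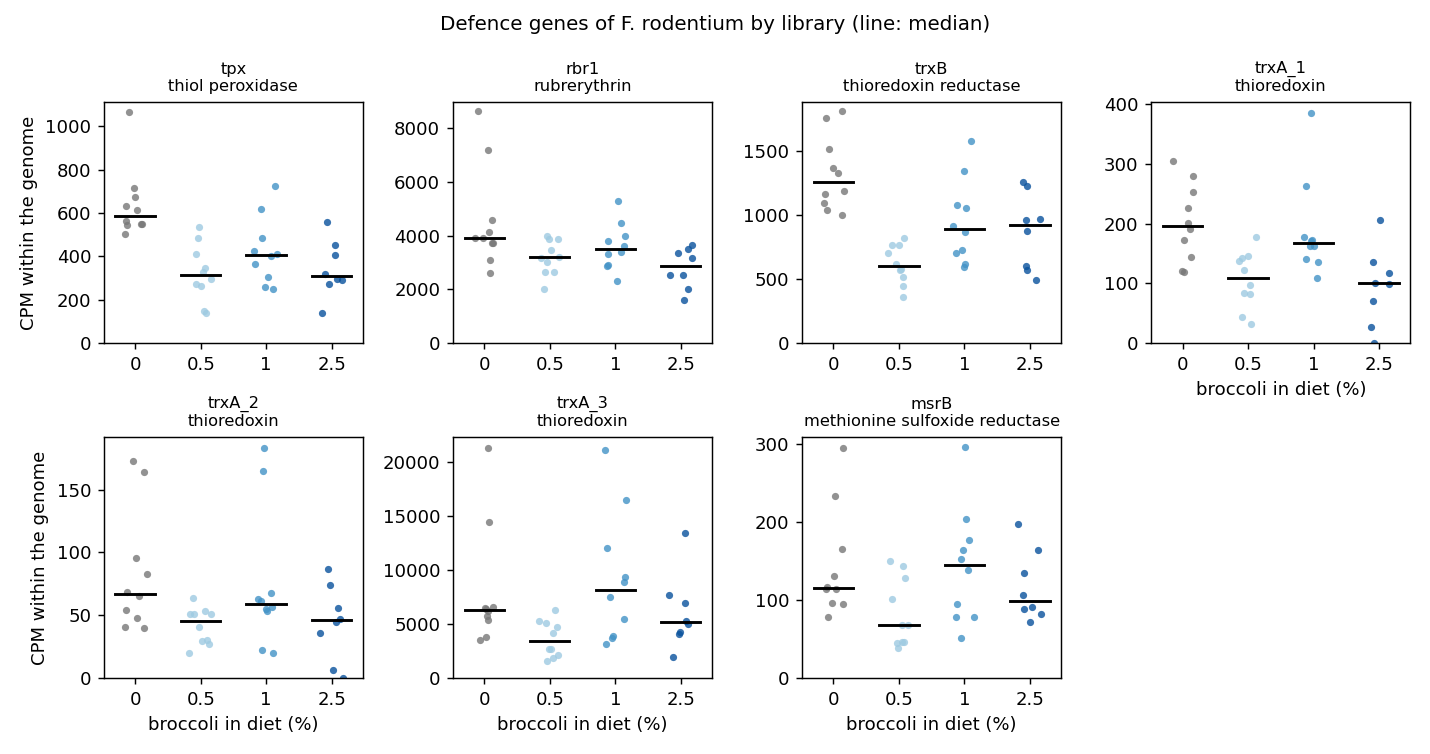
Level of the 7 defence genes of F. rodentium in CPM within the genome (vertical axes) in each library kept at 0, 0.5, 1 and 2.5% broccoli (horizontal axes), with a line at the median. Thioredoxin reductase (trxB) reaches 819 CPM at most at 0.5%, below the lowest 0% library at 1001, and thiol peroxidase (tpx) has a median of 309 CPM at 2.5% and 588 CPM at 0%.

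Of the 3 thioredoxin copies, 2 fell at 0.5%, and both calls were close to the threshold. At 0.5% the copy trxA_1 ran from 31.8 to 177 CPM (median 109.5), against 119.7 to 305 at 0% (median 195), and 5 of 10 libraries lay below the lowest 0% library. At 1% it ran from 109 to 384 CPM (median 167) and at 2.5% from 0 to 207 (median 99.9). The log2 fold change of trxA_1 was -0.89 ± 0.28 at 0.5% (edgeR adjusted p = 0.0401) and -0.87 ± 0.33 at 2.5% (edgeR adjusted p = 0.0836). The copy trxA_3 ran from 1563 to 6319.5 CPM at 0.5% (median 3473), against 3568 to 21376 at 0% (median 6335), and the groups overlapped. At 1% it ran from 3183 to 21155 CPM (median 8192) and at 2.5% from 1925 to 13429 (median 5198), so no order with dose was seen in the medians. The log2 fold change of trxA_3 was -1.13 ± 0.34 at 0.5% (edgeR adjusted p = 0.0303), and -0.40 ± 0.36 at 2.5% (edgeR adjusted p = 0.526). The copy trxA_2 had medians of 67.0 CPM at 0%, 45.6 at 0.5%, 58.9 at 1% and 45.96 at 2.5% and was not called at any dose, with -0.89 ± 0.34 at 0.5% (edgeR adjusted p = 0.0952). The calls at 0.5% were lost in 11 of 40 fits that left out 1 library for trxA_1 and in 7 of 40 for trxA_3, and both were lost without the 6 libraries numbered 76 to 81, of which 4 are at 0.5% (edgeR adjusted p = 0.249 for trxA_1 and 0.0707 for trxA_3). Methionine sulfoxide reductase, msrB, had medians of 116, 68.3, 145 and 98.9 CPM from 0% to 2.5% and was not called either, with -0.70 ± 0.28 at 0.5% (edgeR adjusted p = 0.118) and -0.36 ± 0.34 at 2.5% (edgeR adjusted p = 0.542).

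The same libraries were at the ends of the ranges for several members. At 0%, replicates 2 and 4 were the highest of their group in rbr1, trxB, trxA_1 and trxA_3. At 0.5%, replicate 8 was the lowest in all of these and next to the lowest in tpx. Without 0% replicate 2 the call of trxA_3 at 0.5% was lost (-0.82, edgeR adjusted p = 0.105), and so was that of rbr1 at 2.5% (-0.53, edgeR adjusted p = 0.0636). With both 0% replicates 2 and 4 left out, a setting added after the values were seen, tpx stayed called at 2.5% (-0.74, edgeR adjusted p = 0.0470) and at 0.5% (-0.85, edgeR adjusted p = 0.0113), and trxB stayed called at 0.5% (-0.95, edgeR adjusted p = 0.000910). The calls of rbr1 (-0.44) and trxB (-0.50) at 2.5% were then lost, both with an edgeR adjusted p of 0.118. Those of trxA_1 (-0.72, edgeR adjusted p = 0.130) and trxA_3 (-0.59, edgeR adjusted p = 0.302) at 0.5% were lost too, and trxA_3 at 2.5% turned to 0.09.

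The middle dose did not give calls in F. rodentium. At 1% against 0%, edgeR called 0 of the 7 members and 0.474% of all F. rodentium genes. Of the 7, 2 (tpx and trxB) had an unadjusted edgeR p under 0.05. DESeq2 called 0 of the 7 and 27 of 1992 genes. A comparison of 1% with 0.5%, added after the values had been seen, had all 7 members above 0, with a median log2 difference of 0.63 beside -0.03 for all genes. Those with an unadjusted p under 0.05 were 1.32 ± 0.34 for trxA_3 (edgeR adjusted p = 0.0631), 0.73 ± 0.29 for trxA_1 (edgeR adjusted p = 0.279) and 0.63 ± 0.19 for trxB (edgeR adjusted p = 0.124). No member was called there by edgeR in any bacterium, 3 had an unadjusted p under 0.05, and edgeR called 0.16% of all genes. DESeq2 called 2 members, trxA_3 and trxB of F. rodentium, where it called 48 of 1992 genes. The dose slope likewise gave 0 edgeR calls among the 7, with 2 (rbr1 and tpx) at an unadjusted p under 0.05. It was called by edgeR for 5.98% of all F. rodentium genes. DESeq2 called a slope for 0 of the 7 and for 215 of 1992 genes. As a share of all F. rodentium counts, the 7 members together made up a median of 1.21% at 0%, 0.797% at 0.5%, 1.25% at 1% and 1.10% at 2.5%.

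**Figure D3:**
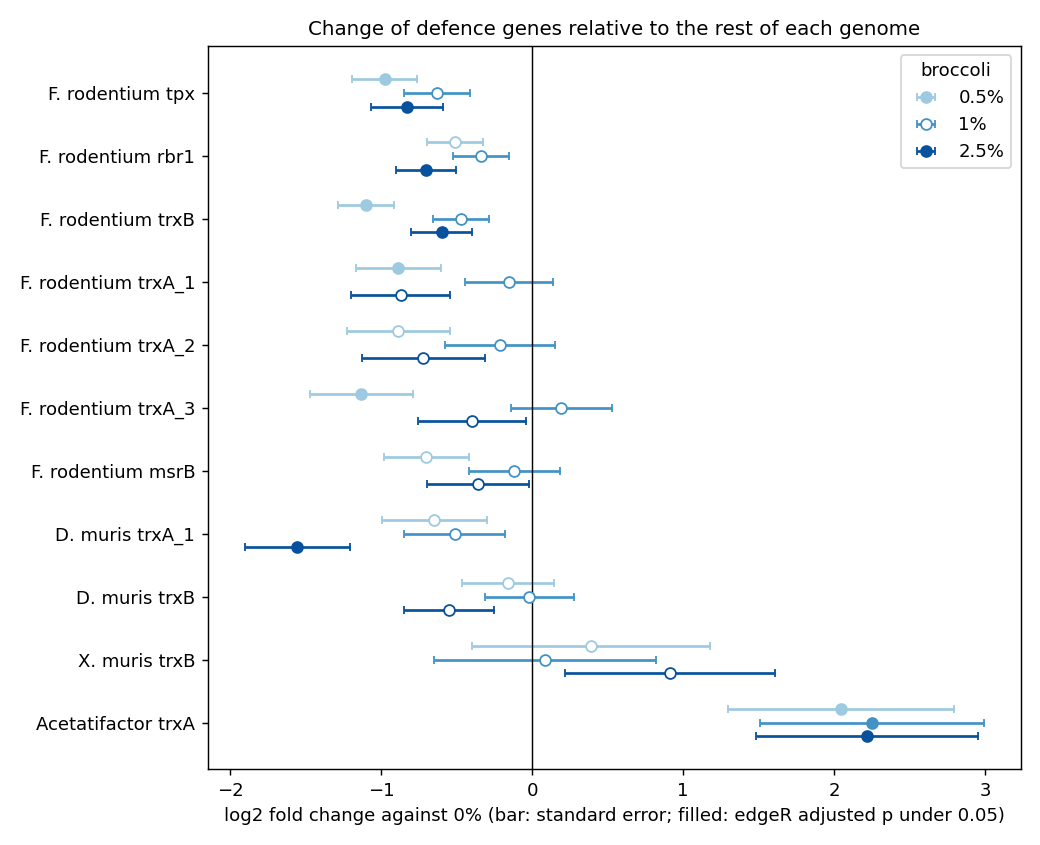
Log2 fold change against 0% (horizontal axis) of the members with counts at 0%, for 0.5, 1 and 2.5% broccoli, with bars of 1 standard error and filled points where the edgeR adjusted p was under 0.05. F. rodentium and D. muris members lie mostly left of 0, as trxB of F. rodentium at -1.10 for 0.5%, and trxA of Acetatifactor lies right of 0, at 2.22 for 2.5%.

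In D. muris, 2 of 10 members passed the filter, and the thioredoxin gene trxA_1 was lower at 2.5%, with medians at 0.5% and 1% out of dose order. Its level ran from 210.5 to 949.6 CPM at 0% (median 481), from 78.04 to 566 at 0.5% (median 254), from 183 to 537 at 1% (median 304) and from 52.0 to 276 at 2.5% (median 157). All 9 libraries at 2.5% were below the 0% mean of 494 CPM, and 6 were below the lowest 0% library. The log2 fold change at 2.5% against 0% was -1.56 ± 0.35, or 2.94-fold lower (edgeR adjusted p = 0.00106), in a genome where 10.6% of genes were called and 6.68% were called lower. The values were -0.51 ± 0.34 at 1% (edgeR adjusted p = 0.514), where 6.23% of D. muris genes were called, and -0.65 ± 0.35 at 0.5% (edgeR adjusted p = 0.382), where 4.96% were. The slope was -0.58 ± 0.13 per percent of broccoli (edgeR adjusted p = 0.00254), beside 8.3% of D. muris genes called for a slope.

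The level of trxA_1 fell while its raw counts did not. The gene had 167 counts over all libraries at 2.5%, against 102 at 0%, while D. muris as a whole held more counts at 2.5%, with a median of 91086.5 against 25672 per library. With the total of the genome in each library as a covariate, the log2 fold change was -1.90 and the call was lost (edgeR adjusted p = 0.0509), and so was that of the slope (edgeR adjusted p = 0.273). That covariate left 22 of 1108 D. muris genes called at 2.5%, against 117 without it, and 0 for the slope, against 92. The reductase of D. muris, trxB, had medians of 883, 709, 656 and 503 CPM from 0% to 2.5%. Its ranges overlapped, with 214 to 1066 CPM at 2.5% against 0 to 1174 at 0%. It was not called at any dose, with -0.55 ± 0.30 at 2.5% against 0% (edgeR adjusted p = 0.282).

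In X. muris the reductase trxB was the 1 member of 4 that passed the filter. Its level ran from 0 to 310.4 CPM at 0% (median 72.8), from 0 to 231 at 0.5% (median 59.6), from 0 to 207 at 1% (median 92.1) and from 86.3 to 337 at 2.5% (median 165). A library held 0 to 4 counts of it at 0% and 15 to 82 at 2.5%, and 3 of the 7 libraries at 0% held none. The log2 fold change of 0.91 ± 0.70 at 2.5% against 0% was not called (edgeR adjusted p = 0.431), with 11% of X. muris genes called and a median of 0.51 over all of them. The values were 0.39 ± 0.79 at 0.5% and 0.08 ± 0.73 at 1%, neither called, where 0% and 6.57% of X. muris genes were called. The slope was 0.37 ± 0.20 (edgeR adjusted p = 0.317), beside 7.31% of genes called.

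Acetatifactor had 1 tested member of 4, the thioredoxin gene trxA, which was called higher at every dose, as were most genes called in that table at 2.5%. It was at 0 in 7 of 10 libraries at 0%, 3 at 0.5%, 0 at 1% and 1 at 2.5%. The median level was 0 CPM at 0% (highest 310.5), 223 at 0.5% (highest 508), 255 at 1% (highest 450.5) and 232 at 2.5% (highest 469), and the ranges of the 3 broccoli groups overlapped each other. The log2 fold changes against 0% were 2.05 ± 0.75 at 0.5% (edgeR adjusted p = 0.0392), 2.25 ± 0.74 at 1% (edgeR adjusted p = 0.00920) and 2.22 ± 0.73 at 2.5% (edgeR adjusted p = 0.00672). Of all Acetatifactor genes, 25.1% were called at 0.5%, 67.8% at 1% and 77% at 2.5%. A slope was called for 63.1% of genes, where that of trxA was not, at 0.48 ± 0.29 (edgeR adjusted p = 0.123). The median change over all genes was 1.81 at 2.5%, or 3.84 with RLE factors, and the value of trxA lay 0.41 above that median at 2.5%, 0.67 at 1% and 1.10 at 0.5%, less than its standard error at 2.5% and 1%. The 5 most counted features held a median of 28.7% of its counts at 2.5%, against 56.8% at 0%, and their part in the result was not tested. The 0% group held 12 trxA counts in all. Without 0% replicate 1, which had the highest level of the group, the log2 fold change at 2.5% was 3.75, and with the total of the genome as a covariate it was 1.39 and not called (edgeR adjusted p = 0.267). The covariate left 126 of 773 Acetatifactor genes called at 2.5%, against 595 without it. The call at 0.5% was lost in 12 of 40 fits that left out 1 library and without the libraries numbered 76 to 81 (edgeR adjusted p = 0.153).

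In L.bacterium335 rubrerythrin was the tested member, 1 of 5, and none of the 10 libraries at 0% held a count of it. Its counts summed to 82 at 0.5%, 268 at 1% and 1015 at 2.5%. The median level was 66.8 CPM at 0.5% (highest 191), 99.9 at 1% (highest 183) and 147 at 2.5% (highest 178), with 2, 2 and 1 libraries still at 0. Against a floor of 3 counts over the whole 0% group, the level was at least 27.03-fold higher at 0.5%. At 1% it was at least 36.3-fold higher, and at 2.5% at least 37.996-fold. These bounds cover counting error only. The 0% libraries held counts for only 11.99% to 15.4% of L.bacterium335 features. At 2.5% this was 68.1% to 79.6%, apart from replicate 9 at 15.2%. The bounds therefore do not set rbr apart from the rest of its table. In this genome 80.1%, 79.9% and 92.8% of tested genes were called at 0.5%, 1% and 2.5%. The median log2 fold change of all tested genes was 7.60, 7.68 and 7.94 at the same doses. The gene moved with its whole table: its fitted log2 fold change, which depends on the prior count when one group is at 0 and is no bound, differed from the median of all tested genes by -0.10 at 0.5%, 0.12 at 1% and 0.24 at 2.5%. The test against 0% carries no weight for the gene, since it passed the filter through the broccoli groups. The slope of rbr over all groups was called higher (edgeR adjusted p = 0.0294), as was a slope in either direction for 46.1% of genes, and that call was lost when the genome total was a covariate (slope 0.18, edgeR adjusted p = 0.977). With that covariate 0 of the 1384 tested genes had a called slope, against 638 without it. Among the broccoli groups, the value at 1% against 0.5% was 0.30 ± 0.61 and not called (edgeR adjusted p = 0.999). The 5 most counted features of this genome held a median of 18.1% of its counts at 2.5%, against 76.8% at 0%, and their part in the result was not tested.

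**Figure D4:**
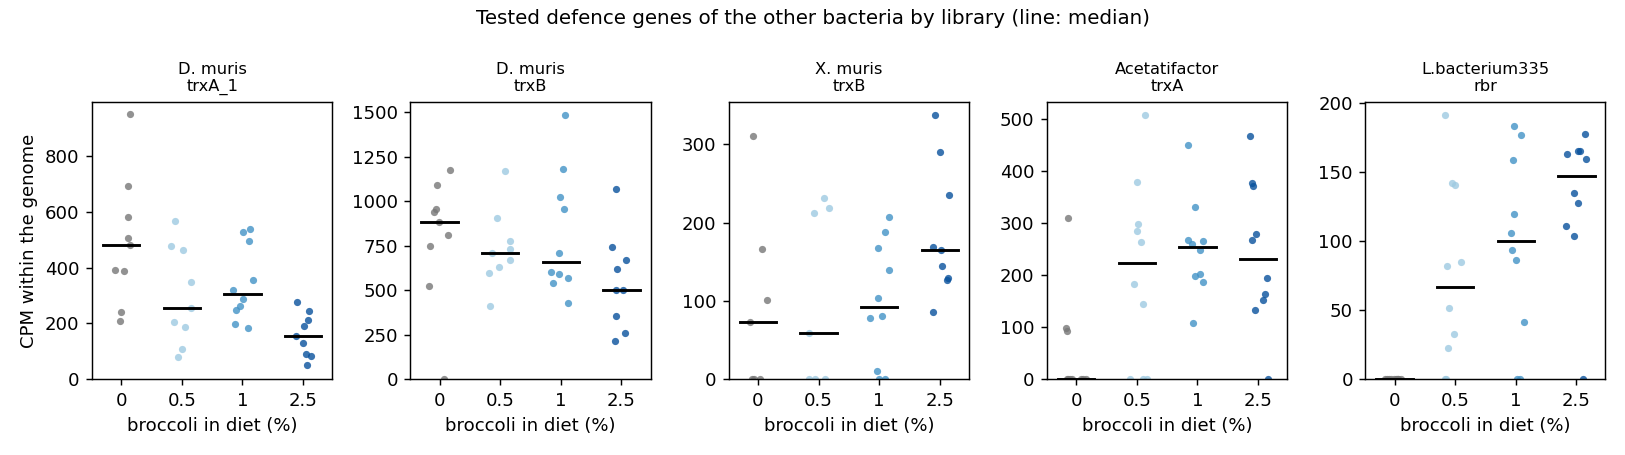
Level in CPM within the genome (vertical axes, which differ between panels) of the 5 tested defence genes outside F. rodentium, in each library kept at 0, 0.5, 1 and 2.5% broccoli (horizontal axes), with a line at the median. D. muris trxA_1 has a median of 157 CPM at 2.5% and 481 CPM at 0%, while rbr of L.bacterium335 is at 0 CPM in all 10 libraries at 0%.

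The 18 members that did not pass the filter were counted too rarely for a test, and 12 of them had no count in any 0% library. The symbols katA and sodB occurred in the D. muris table alone among the 5. Its catalase gene katA had 0 counts at 0%, 10 at 0.5%, 10 at 1% and 27 at 2.5%. Superoxide dismutase, sodB, had 0, 6, 3 and 17 counts at the same doses, and the alkyl hydroperoxide reductase gene ahpC had 0, 2, 1 and 17. D. muris also held tpx (1, 10, 8 and 33 counts), bcp (12, 23, 62 and 63), rbr_1 (3, 11, 29 and 35) and rbr_2 (0, 13, 11 and 20), and no count of trxA_2 at any dose. These are raw sums that grow with the total of the genome, so no change within the bacterium is read from them.

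The untested members of the other genomes had at most 7 counts each over the 0% libraries. In L.bacterium335, thioredoxin (trxA) had 0, 54, 161 and 802 counts from 0% to 2.5%, the highest sum among all untested members. The peroxiredoxin gene bcp had 0, 39, 83 and 364, trxB had 0, 26, 47 and 227, and ahpC had 0, 0, 10 and 38. In Acetatifactor rbr had 6, 14, 78 and 124 counts, rbr1 had 0, 2, 3 and 25, and trxB had 2, 10, 19 and 129. In X. muris the thioredoxin copy trxA_2 had 7, 22, 42 and 293 counts, trxA_1 had 0, 3, 0 and 15, and bcp had 0, 5, 16 and 50.

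The gap between bacteria in the scaled level of the same gene differed between 2.5% and 0% for 3 of 6 pairs, and for 1 of 6 once each genome was centred on its median. For trxA and trxB, which passed in several genomes, the log2 CPM of one bacterium minus that of another was taken within each library. These gaps were compared between 2.5% and 0% for 6 pairs of bacteria (two-sided exact permutation tests, adjusted over the 6 pairs). Counts of all copies of a gene in a genome were summed first. For trxA of F. rodentium at 0% they were 37031 of trxA_3, 1230 of trxA_1 and 434 of trxA_2. The gap in trxA between Acetatifactor and D. muris was 3.51 higher at 2.5% than at 0% (exact permutation test, adjusted p = 0.00346, n = 9 at each dose), with 8 of 9 libraries at 2.5% above the 0% mean. The gap in trxA between Acetatifactor and F. rodentium was 2.48 higher (exact permutation test, adjusted p = 0.0197, n = 8 at 2.5% and 10 at 0%). The gap in trxB between F. rodentium and X. muris changed by -2.02 (exact permutation test, adjusted p = 0.0177, n = 8 at 2.5% and 7 at 0%). Both trxA gaps rest on trxA of Acetatifactor, which was at 0 in 7 of 10 libraries at 0%. That gene passed the filter through the broccoli groups, so these 2 tests support no difference between bacteria. The trxB gap rests on 0 to 4 counts per library of X. muris trxB at 0%, near the floor, with 3 of 7 libraries at 0. That gene too passed the filter through the broccoli groups, so this test also supports no difference between bacteria.

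The other 3 pairs missed the threshold: -1.11 for trxA of D. muris minus F. rodentium (exact permutation test, adjusted p = 0.0951), -1.61 for trxB of D. muris minus X. muris (adjusted p = 0.194) and 0.39 for trxB of D. muris minus F. rodentium (adjusted p = 0.666). These gaps rest on scaling within each genome. When each gene was centred on the median of its genome in the same library, only the pair of Acetatifactor and D. muris in trxA was still called. Centring does not lift the limit that the filter and the libraries at 0 set on trxA of Acetatifactor. The gap between Acetatifactor and F. rodentium was then 1.08 (exact permutation test, adjusted p = 0.130), and that between F. rodentium and X. muris was -0.17 (exact permutation test, adjusted p = 0.841).

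Related redox genes in the same 5 tables were listed by symbol, and their calls are given beside those of the members with no test of a difference. Of the other peroxide, superoxide and oxygen defence genes, 11 of 22 were tested, and 3 were called higher and 2 lower at 2.5% against 0%. In F. rodentium the flavorubredoxin-type gene norV_1 rose by 2.36 ± 0.56 in log2 (edgeR adjusted p = 0.00544), while the rubredoxin gene rub, a small electron carrier that can serve rubrerythrin, fell by 1.71 ± 0.48 on that scale (edgeR adjusted p = 0.0196). A second copy, norV_2, fell by 0.86 ± 0.26 (edgeR adjusted p = 0.0311). The other calls were perR, a peroxide-sensing repressor, and nrdR, both higher in L.bacterium335, where 92.8% of genes were called. The gene nrdR was listed by symbol, and a part of it in oxygen defence was not tested.

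At 0.5% against 0%, 3 genes of that list were called higher and 2 lower. Of these, 2 of the higher calls were in L.bacterium335, where 80.1% of genes were called. The 3 in F. rodentium, where 8.47% of genes were called, are named here after their values were seen. The desulfoferrodoxin gene dfx, a superoxide reductase, fell by 1.04 ± 0.31 (edgeR adjusted p = 0.0287) and norV_2 by 1.20 ± 0.23 (edgeR adjusted p = 0.000743), while spxA, whose product in Bacillus is a thiol-sensing regulator of redox genes, rose by 1.13 ± 0.22 (edgeR adjusted p = 0.000743). At 1%, 2 of the 11 were called, both higher and both in L.bacterium335, where 79.9% of genes were called.

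Other thioredoxin-fold and thiol repair genes had 12 of 32 tested, with 3 called higher and 0 lower at 2.5%. They were mshA_4 and mshA_5 of L.bacterium335, where 92.8% of genes were called, and mshA_4 of D. muris, where 10.6% were. The D. muris gene rose by 0.70 ± 0.21 (edgeR adjusted p = 0.0238). The symbol mshA names a glycosyltransferase of mycothiol synthesis in mycobacteria. Of the cysteine and thiol metabolism genes, 13 of 36 were tested, with 3 called higher and 1 lower at 2.5%. In F. rodentium the methionine synthase gene metH_2 rose by 1.11 ± 0.31 (edgeR adjusted p = 0.0184), and cysE_1, for the serine acetyltransferase that opens cysteine synthesis, fell by 1.13 ± 0.35 (edgeR adjusted p = 0.0311). The other calls were cysE and patB_2, higher in L.bacterium335, where 92.8% of genes were called. Iron-sulphur cluster assembly had 11 of 22 genes tested and 0 called by edgeR at 2.5%, with 2 at an unadjusted p under 0.05 and 7 (6 higher, 1 lower) called by DESeq2. At that dose DESeq2 called 2862 of 4240 genes in L.bacterium335 and 2559 of 3895 in Acetatifactor. It called 269 of 1992 in F. rodentium, 174 of 2414 in D. muris and 66 of 2456 in X. muris.

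The genes whose level followed a member most closely over libraries differed between bacteria. For rbr1 of F. rodentium over 38 libraries, they were clpB (Spearman's rho of 0.87), a chaperone that dissolves protein aggregates, then cbpA (0.87) and egtA (0.87), among 949 genes with a symbol. For trxA_1 of D. muris over 37 libraries, mgsA had 0.62, gdhB 0.54 and tolQ_2 0.52. For trxA of Acetatifactor over 40 libraries, glmM, rpoC and skfE each had 0.78. For rbr of L.bacterium335 over 40 libraries, pyrC had 0.90, btuD_3 0.87 and purD 0.87, of which pyrC and purD serve nucleotide synthesis. These values describe libraries that share scaling, diet and depth, and they carry no test.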

How the data were processed

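RNA was counted in 40 libraries of mouse cecal contents, 10 per diet, grouped by the treatment label. The authors deposited raw read counts per feature, whole numbers with no normalization, in 1 table per bacterium. Per the labels' protocols, the RNA was cleared of ribosomal RNA (QIAseq FastSelect) before library preparation (KAPA RNA HyperPrep). No aligner, counter, strand setting or build is given in the sources used here. Replicate numbers follow sample order and pair nothing.

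Each genome was fitted alone in edgeR 4.0.16 (R 4.3.3; limma 3.58.1): libraries with at least 10000 counts, filterByExpr, TMM factors and the quasi-likelihood test with all 4 groups, adjusted over all tested genes of the genome and contrast at 0.05. The 5 stable RNAs of X. muris (ssrA, rnpB, ffs and both rrf copies) stayed out. Standard errors are the log2 fold change over the root of F. Log2 CPM used a prior count of 2, and pairs of bacteria were compared with scipy 1.17.1. The members, the lists and the tests were chosen with earlier results of these data known. Values are given for every member that passed the filter, for the 2 genes of each list and genome with the smallest p among those called at 2.5%, and for the 3 genes most like the member with the smallest p of each genome. norV_2 and the genes of F. rodentium called at 0.5% are named beyond that rule. Among 180 within-group pairs of libraries, 0 were identical, and the chi-square per degree of freedom was 6.49 or more. Alternatives were RLE factors, no low-count filter, DESeq2 1.42.0 in place of edgeR, other library minimums, the genome total as a covariate, and left-out libraries, among them those numbered 76 to 81 in the labels, a run of numbers apart from the others. The floor of 3 counts covers counting error only.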

Additional observations from a re-analysis of the deposited data

Results flagged for a closer look

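Libraries far from the rest of their group were looked for in 47 sets of a member and a diet group, and 5 sets held one, where chance gives about 5% of sets. Thiol peroxidase tpx of F. rodentium was at 1067 CPM in 0% replicate 2, and the next highest 0% library was at 714.8. Thioredoxin trxA_1 of F. rodentium was at 0 CPM in 2.5% replicate 4, and the next lowest at 27.55. In Acetatifactor, trxA was at 0 CPM in 2.5% replicate 8, and the next lowest was at 132.9. That library held counts for 14.9% of Acetatifactor features, against 55.2% to 80.7% in the rest of the group. In L.bacterium335, rbr was at 0 CPM in 2.5% replicate 9, and the next lowest was at 103.6. There 15.2% of L.bacterium335 features were counted, against 68.1% to 79.6% in the rest of the group. In both cases the whole genome was thinly covered, so the 0 is not particular to the gene. In D. muris, trxB was at 0 CPM in 0% replicate 3, and the next lowest was at 522.3.

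The gap between bacteria in the level of the same gene, scaled within each genome, differed between 2.5% and 0% in 3 of 6 pairs by an exact permutation test. The change in the log2 gap at 2.5% against 0% was 3.509 for trxA of Acetatifactor minus D. muris, 2.476 for trxA of Acetatifactor minus F. rodentium and -2.024 for trxB of F. rodentium minus X. muris. Centred on the median of each genome, the first pair was still called, and the others were not, at 1.08 (exact permutation test, adjusted p = 0.130) and -0.17 (exact permutation test, adjusted p = 0.841). Acetatifactor trxA was at 0 in 7 of 10 libraries at 0% and passed the filter through the broccoli groups. The 2 gaps that use it therefore support no difference between bacteria. X. muris trxB had 0 to 4 counts per library at 0% and also passed the filter through the broccoli groups. Its gap supports no difference between bacteria either.

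Alistipes, whose table was outside the rule, held rows for rbr, sodB, trxA and trxB. Their counts summed to 168 at 2.5%, in 9 libraries, against 0 at 0%. The genes trxB, trxA, sodB and rbr had 79, 46, 37 and 6 of these counts. The whole Alistipes table held 161531 counts at 2.5% and 1620 at 0%.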

How the results depend on the processing

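No paired analysis was possible because the replicate numbers follow sample order and the labels give none that are shared between diets. Without the low-count filter, 12 members were called at 2.5%, 6 at 1% and 9 for the slope. With DESeq2 they numbered 11, 7 and 9. Both settings also tested members that the filter had removed, so these counts are not out of 12. The calls DESeq2 added lay in Acetatifactor and L.bacterium335, among such members and, for the slope, trxA of Acetatifactor. In Acetatifactor no filter called 2538 of 3895 genes at 2.5%, 1852 at 1% and 1917 for the slope, and DESeq2 2559, 1786 and 2542. In L.bacterium335 these were 3252 of 4240, 2770 and 2807, and 2862, 2410 and 2924. No filter at 2.5% called 208 of 1992 genes in F. rodentium, 180 of 2414 in D. muris and 98 of 2456 in X. muris. With the genome total as a covariate, 3 members were called at 2.5% and 1 for the slope, and the cause was not tested. Slope calls over all genes fell as well, from 638 to 0 in L.bacterium335 and from 92 to 0 in D. muris. Without 2.5% replicates 8 and 9, the slope gave 4 calls. At 1% against 0.5%, RLE factors and no filter each gave 1 call and DESeq2 gave 2, all in F. rodentium. There these settings called 8 of 1689, 12 of 1992 and 48 of 1992 genes. Leaving out 1 library at a time gave 5 to 8 calls at 2.5%, 2 to 3 at 1%, 4 to 8 at 0.5%, 2 to 4 for the slope, 0 to 1 for 1% against 0.5%, and 3 to 4 pairs of bacteria. Centring on the genome median left 1 pair. A library minimum of 50000 left no 0% library in 3 genomes, so no count over the 5 could be had.

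Values that turned their sign were uncalled before and after, and the cause was not tested. D. muris trxB at 1% became 0.0651 with no filter, 0.0165 with no library minimum and 0.0222 without libraries 76 to 81. F. rodentium trxA_3 at 1% became -0.0283 with the minimum of 50000 and -0.0971 with the covariate. Without 0% replicates 2 and 4, trxA_3 became 0.0924 at 2.5% and 0.134 in slope, msrB 0.159 at 1% and 0.0235 in slope, and trxA_2 0.141 at 1%. X. muris trxB at 1% became -0.180 with RLE factors and -0.200 with DESeq2. For 1% against 0.5%, the covariate gave -0.0700 for Acetatifactor trxA, -0.0383 for F. rodentium rbr1 and -0.420 for L.bacterium335 rbr, and D. muris trxA_1 became -0.0253 without libraries 76 to 81. The gap in trxB of D. muris minus X. muris became 0.202 when centred.

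Leaving out 1 library at a time moved some values across 0. D. muris trxB ran from -0.164 to 0.0584 at 1% and from -0.00479 to 0.261 for 1% against 0.5%. F. rodentium msrB ran from -0.235 to 0.0667 at 1% and from -0.114 to 0.00689 in slope. F. rodentium trxA_3 ran from -0.0266 to 0.505 at 1% and from -0.137 to 0.0730 in slope. X. muris trxB ran from -0.101 to 0.728 at 1%, from -0.0828 to 0.99976 at 0.5% and from -0.511 to 0.132 for 1% against 0.5%. The gap in trxB of D. muris minus F. rodentium ran from -0.0955 to 0.541.

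Depth limits X. muris, D. muris and Acetatifactor at 0%, where the median library held 15995, 25672 and 35241 counts.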
